A study of Mus musculus with 30 samples.

Results

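The enzymes and regulators of cholesterol synthesis were described as a set of 30 genes, taken by name from a list of pathway members, in RNA sequencing of mouse colon. The deposited table holds 14475 genes and all 30 were found in it. The set has 2 genes that supply cytosolic acetyl-CoA (Acly, Acss2), 5 of the mevalonate steps (Acat2, Hmgcs1, Mvk, Pmvk, Mvd), 3 of the isoprenoid steps (Idi1, Fdps, Ggps1), 3 of the squalene steps (Fdft1, Sqle, Lss), 9 of the steps from lanosterol to cholesterol (Cyp51, Tm7sf2, Lbr, Msmo1, Nsdhl, Hsd17b7, Ebp, Sc5d, Dhcr7), 6 that encode SREBP2 and the proteins that control its processing (Srebf2, Scap, Mbtps1, Mbtps2, Insig1, Insig2) and 2 further SREBP2 targets (Stard4, Tmem97).

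The 30 libraries came from ascending and descending colon of female mice that shared 1 microbiota, with 7 control and 8 mutant libraries in each region. Mutants carried the genotype label TM-DKOAsc; per the breeding protocol TM-DKO mice are C1galt1 f/f, VillinCre-ERT2 and C3GnT-/-, and controls are wild-type littermates, whose own alleles at these loci are not listed library by library. VillinCre-ERT2 is a tamoxifen-activated recombinase under a promoter of intestinal epithelium, so that C1galt1, which starts core 1 O-glycans, is deleted from those cells, whereas C3GnT (listed as B3gnt6), which makes core 3 O-glycans, is missing from every cell. Tamoxifen was given to mutants or littermates at 0.5 mg, about 20 mg/kg, daily for 5 days, and mice were examined 5 or 10 days after the last dose; which interval applies to a library, and whether every control received tamoxifen, is not given in the labels. Cage A (2 controls and 3 mutants in each region) is labelled C57BL/6 Background at 3.4 months, cage B (3 and 2) Mixed BL/6-129SvJ at 2.6 months, and cage C (2 and 3) Mixed BL/6-129SvJ at 3.2 months, while the protocol gives a mixed background for all mutants and littermates; cage, strain label and age therefore cannot be told apart. Libraries are named here by region, genotype, cage and number. Nothing in the labels says which libraries share an animal, so p-values measure the spread between these libraries.

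Cholesterol is built from acetyl-CoA through mevalonate, isoprenoids, squalene and lanosterol. SREBP2, encoded by Srebf2, is held in the endoplasmic reticulum by Scap and the Insig proteins when sterols are abundant; when sterols are low, Scap carries it to the Golgi, where the proteases of Mbtps1 and Mbtps2 release the part that enters the nucleus and switches on most genes of the pathway, Srebf2 and Insig1 included. In the colon, dividing crypt cells and the renewing surface epithelium make sterols for new membranes.

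Promoter sequences show which members carry the letters that SREBP2 and its partner factors are known to bind. RefSeq promoter entries (GRCm38.p6) were matched by symbol for 26 of the 30 members, in 32 windows of 250 bases before a listed start site; Sqle, Fdft1, Fdps and Stard4 were not matched. On both strands, TCACNCCA, a sterol response element core, was found in 3 of the 32 windows (9.38%, against 3.67% of all 32851 windows of that length), those of Hmgcs1, Srebf2 and Msmo1. CCAAT, the box bound by NF-Y, was found in 21 windows (65.6%, against 33.8%), and GGGCGG, the box bound by Sp1, in 25 (78.1%, against 32.7%). Windows of 1 gene can overlap each other. A match describes letters only, and its absence says nothing about the factor.

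The promoters of 6 genes on which the results turn are printed. Hmgcs1 and Srebf2 were taken for the sterol response element core, and Mvd for the largest mutant difference in the ascending colon. Tmem97 was taken as 1 of the 2 members called there in each of the 4 alternative settings that called any member. The promoters of Acly and Insig2 were taken for opposite regional differences. Each is written 5′ to 3′ on the strand of the gene, with TCACNCCA and CCAAT matches on either strand in capitals (CCAAT on the other strand reads ATTGG), and bases that GENCODE M21 places inside the gene were left off. The stretches are Hmgcs1 at chr13:119690101-119690350 (plus strand), Srebf2 at chr15:82147019-82147180 (plus), Mvd at chr8:122443423-122443672 (minus), Tmem97 at chr11:78550778-78550985 (minus), Acly at chr11:100528001-100528250 (minus) and the outermost of the 3 listed starts of Insig2 at chr1:121332590-121332839 (minus).
Hmgcs1: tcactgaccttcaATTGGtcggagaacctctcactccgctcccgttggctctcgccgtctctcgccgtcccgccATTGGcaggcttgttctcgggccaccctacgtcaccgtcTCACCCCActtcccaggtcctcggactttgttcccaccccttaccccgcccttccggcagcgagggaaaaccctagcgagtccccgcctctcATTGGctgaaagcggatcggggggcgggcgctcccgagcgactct
Srebf2: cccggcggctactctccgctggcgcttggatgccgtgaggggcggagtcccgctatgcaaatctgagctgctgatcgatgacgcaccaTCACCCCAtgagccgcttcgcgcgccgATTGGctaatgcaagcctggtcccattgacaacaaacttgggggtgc
Mvd: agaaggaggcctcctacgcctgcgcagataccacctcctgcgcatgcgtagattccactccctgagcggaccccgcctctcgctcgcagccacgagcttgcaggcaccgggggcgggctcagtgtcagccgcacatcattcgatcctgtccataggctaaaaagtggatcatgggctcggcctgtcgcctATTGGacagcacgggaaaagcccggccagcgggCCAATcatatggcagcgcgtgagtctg
Tmem97: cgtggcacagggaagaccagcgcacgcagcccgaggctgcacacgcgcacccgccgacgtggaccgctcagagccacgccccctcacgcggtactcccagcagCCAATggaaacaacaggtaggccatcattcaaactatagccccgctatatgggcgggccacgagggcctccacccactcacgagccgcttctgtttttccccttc
Acly: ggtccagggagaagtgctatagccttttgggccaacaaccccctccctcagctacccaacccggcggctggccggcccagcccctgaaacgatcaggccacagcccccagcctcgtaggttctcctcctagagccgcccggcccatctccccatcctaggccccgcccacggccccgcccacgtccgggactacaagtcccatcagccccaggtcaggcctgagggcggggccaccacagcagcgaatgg
Insig2: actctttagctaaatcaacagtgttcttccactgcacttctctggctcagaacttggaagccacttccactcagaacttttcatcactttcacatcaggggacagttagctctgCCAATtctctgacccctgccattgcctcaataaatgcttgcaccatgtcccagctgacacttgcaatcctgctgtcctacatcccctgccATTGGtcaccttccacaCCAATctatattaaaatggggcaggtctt
In Hmgcs1 the sterol response element core lies 137 to 130 bases before the start, between NF-Y boxes at 176 to 172 and 45 to 41 bases, with another at 237 to 233. In Srebf2 it lies 162 to 155 bases before the RefSeq start, and an NF-Y box follows at 135 to 131. That start lies inside the GENCODE gene, so the printed stretch of Srebf2 ends 89 bases before it. Mvd holds NF-Y boxes at 60 to 56 and 27 to 23 bases before its start and no match to TCACNCCA. Acly holds neither of those motifs in this window and 4 Sp1 boxes, the nearest 27 to 22 bases before the start.

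Values are FPKM (fragments per kilobase of gene per M mapped reads), which allows levels of different genes to be compared per length. Over all 30 libraries Acly had the highest mean level of the set, 113.6 FPKM, followed by Hmgcs1 at 61.2, Srebf2 at 45.6, Stard4 at 37.4 and Insig1 at 28.7 FPKM. The lowest mean levels were those of Idi1 (isopentenyl diphosphate isomerase) at 1.28, Mbtps2 at 2.85 and Fdps (farnesyl diphosphate synthase) at 4.73 FPKM. Within groups, the pooled SD of log2(FPKM + 1) was smallest for Scap at 0.13, Mbtps1 at 0.15 and Srebf2 at 0.17, and largest for Tmem97 at 0.68, Ebp at 0.55, Fdps and Lss, both at 0.54. One library, descending mutant A3, had the highest level of 16 of the 30 members, and ascending control C2 had the lowest level of 8.

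Depth, estimated from the spacing of low FPKM values, was 1.46 to 8.99 M reads per library and lowest in the 3 ascending mutants of cage A; no read counts were used. B3gnt6, the gene of the missing core 3 enzyme, was 0.11 to 19.5 FPKM in ascending controls and 0 to 0.53 in ascending mutants, and 0 to 0.43 against 0 to 0.06 FPKM in the descending colon. C1galt1 was 21.5 to 45.7 FPKM in ascending controls and 18.3 to 34.3 in ascending mutants, and 28.0 to 38.7 against 14.6 to 36.7 FPKM in the descending colon; the groups overlapped, and which exons the deletion removes is not given. Epithelial markers summed to 2581 to 5726 FPKM over all libraries. The libraries least like their own group over all genes were ascending control B1, ascending mutant B1, descending control A2 and descending mutant C1, with median correlations of 0.93, 0.94, 0.89 and 0.89. The 7 smooth muscle markers summed to 5.14 to 425.9 FPKM, so libraries also held muscle RNA in small and varying amounts. In such a mixture fewer cells of a type and less RNA per cell cannot be told apart.

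Whether loss of O-glycans goes with a different level of the pathway was asked first in the ascending colon. The difference between mutants and controls, adjusted for cage, was above 0 for 26 of the 30 members, and the median difference of the set was 0.29 on the log2(FPKM + 1) scale, against -0.05 over all genes, 38.7% of which were above 0. No gene passed an adjusted p under 0.05 by limma with Benjamini-Hochberg adjustment over all 12178 genes tested (0%), and the lowest adjusted p was 0.212. At an unadjusted p under 0.05, 1396 genes differed by limma; 11 members did, each higher in mutants, where 3.46% of all genes were higher at that level. These 11 were Cyp51, Mvd, Hmgcs1, Mvk, Sqle, Nsdhl, Hsd17b7, Stard4, Msmo1, Fdft1 and Insig1. In no member did the control and mutant libraries separate without overlap, as they did in 0.0985% of all genes.

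In the mevalonate steps, 3 of 5 members had an unadjusted p under 0.05. Hmgcs1, the synthase that makes HMG-CoA, was 24.1, 33.3 and 63.6 FPKM (lowest, median and highest) in ascending controls and 39.4, 55.5 and 84.9 FPKM in ascending mutants. Control B1 stood at 63.6 and the next control, C1, at 43.7, so that only these 2 controls exceeded the lowest mutant. The difference was 0.66 ± 0.19 (SE), with an adjusted p of 0.273 in limma. Mvd, the decarboxylase that closes the mevalonate part, was 6.17, 8.10 and 18.9 FPKM in controls and 12.1, 16.9 and 18.4 FPKM in mutants. Control C1 was above every mutant, and the other 6 controls, at 10.6 or less, were below every mutant. Its difference was 0.70 ± 0.17 (SE), with an adjusted p of 0.214 in limma. Mvk, mevalonate kinase, differed by 0.59 ± 0.18, whereas Acat2, the thiolase of the opening step, differed by 0.28 ± 0.20 and Pmvk, the next kinase, by 0.22 ± 0.12.

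Sqle, squalene epoxidase, was 6.88, 11.9 and 22.7 FPKM in ascending controls and 13.6, 18.4 and 21.0 FPKM in ascending mutants. Control B1 again stood highest, above all mutants, and the other 6 controls were below all mutants. The difference was 0.58 ± 0.18 (SE), with an adjusted p of 0.298 in limma. Fdft1, squalene synthase, differed by 0.40 ± 0.16 and Lss, lanosterol synthase, by 0.29 ± 0.17. In the isoprenoid steps none of the 3 members reached an unadjusted p of 0.05: Fdps differed by 0.36 ± 0.23, and Idi1 and Ggps1 lay within 1 SE of 0.

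Among the 9 genes from lanosterol to cholesterol all differences were above 0, and 4 had an unadjusted p under 0.05. Cyp51, the lanosterol demethylase, had the smallest p of the set. It was 10.3, 15.02 and 21.3 FPKM in controls and 20.9, 25.7 and 29.6 FPKM in mutants. The highest control, B1, exceeded the lowest mutants, B1 at 20.9 and C3 at 21.1, and all other controls, at 18.4 or less, were below every mutant. The difference was 0.69 ± 0.14 (SE), with an adjusted p of 0.214 in limma. Msmo1, the methyl sterol oxidase, differed by 0.57 ± 0.22, Nsdhl, a sterol dehydrogenase, by 0.48 ± 0.16 and Hsd17b7, the ketoreductase that acts with it, by 0.38 ± 0.13. Ebp, a sterol isomerase, differed by 0.30 ± 0.15, and the differences of Tm7sf2, Lbr and Sc5d lay between 0.16 and 0.19. Dhcr7, a sterol reductase of the closing step, lay within 1 SE of 0.

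Of the genes of SREBP2 control, Insig1 had the largest difference. Srebf2 was 33.2, 40.2 and 46.2 FPKM in ascending controls and 36.3, 47.1 and 54.2 FPKM in ascending mutants. Its ranges overlapped widely, and the difference of 0.19 ± 0.09 (SE) had an adjusted p of 0.436 in limma. Insig1, a retention protein of SREBP2, was 13.5, 23.2 and 34.0 FPKM in controls and 20.5, 33.3 and 40.7 FPKM in mutants. Its difference was 0.44 ± 0.20 (SE), with an adjusted p of 0.422 in limma. Scap, the escort of SREBP2, differed by 0.11 ± 0.08, and Mbtps1, Mbtps2, Insig2, Acly and Acss2 lay within 1 SE of 0. Of the other targets, Stard4, a sterol carrier, differed by 0.32 ± 0.12, and Tmem97, a membrane protein that binds sterols, by 0.48 ± 0.23.

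**Figure D1:**
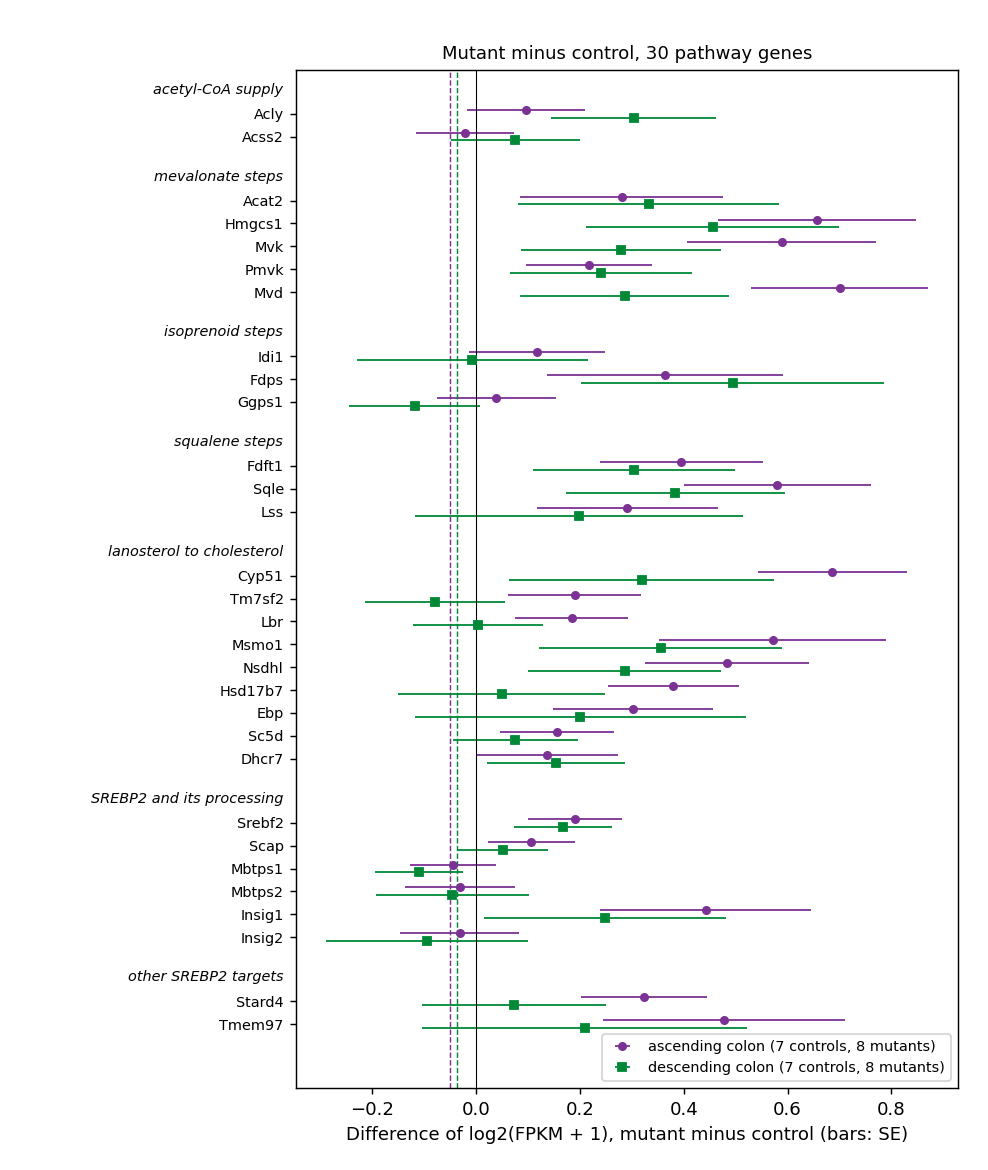
Differences of log2(FPKM + 1), mutant minus control, of the 30 genes by step of the pathway, with bars of 1 SE, in ascending (circles) and descending colon (squares); dashed lines are the medians of all genes. In the ascending colon 26 points lie above 0, the highest being Mvd at 0.70, Cyp51 at 0.69 and Hmgcs1 at 0.66.

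**Figure D2:**
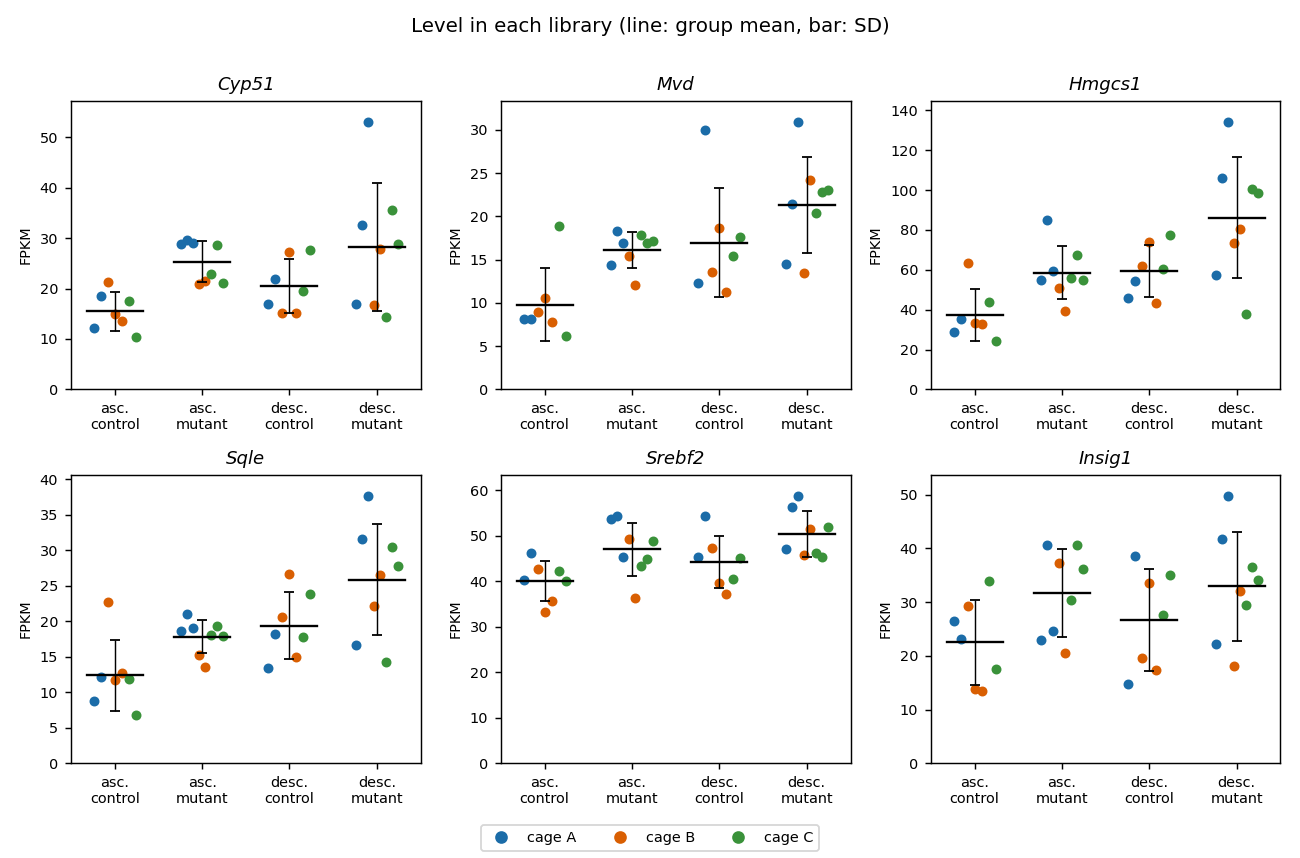
FPKM of 6 genes in each of the 30 libraries (points, coloured by cage), with the group mean (line) and SD (bar). In the ascending colon most mutants stand above most controls for Cyp51, Mvd, Hmgcs1 and Sqle, apart from control B1 for Cyp51, Hmgcs1 and Sqle and control C1 for Mvd.

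The absence of calls in the ascending colon depended on which libraries were used and how they were weighted. With array quality weights, which give less weight to libraries far from the fit, 746 genes and 11 members passed. Without cage B the numbers were 652 and 7, and without ascending mutant B1 they were 170 and 2. Without ascending control B1 and ascending mutant B1, a setting chosen after seeing the data, 839 genes passed and 8 members did. Every member that passed was higher in mutants, where 2.86% of all genes were called higher in the last of these settings and 2.36%, 2.14% and 0.724% in the other 3, in the order given. Of 14 alternative settings and 15 fits with 1 library left out, only these 4 called any member, and the others called 0. Cyp51 and Tmem97 passed in all 4 of them, and Hmgcs1, Sqle and Msmo1 in 3. In that last setting Cyp51 differed by 0.79 ± 0.13 (SE; adjusted p = 0.0206 in limma), Hmgcs1 by 0.78 ± 0.16 and Sqle by 0.74 ± 0.14.

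Markers of other cells differed in the same libraries. In the ascending colon all 7 smooth muscle markers were lower in mutants (median -1.12), as were all 7 fibroblast and matrix markers (median -0.95), all 5 macrophage markers tested of 6 (median -0.84), both neuronal and glial markers tested of 5, all 3 adipocyte markers tested of 5 and all 4 T cell markers. Smooth muscle markers summed to 11.5 to 411.6 FPKM in ascending controls, the highest in control B1, and to 5.14 to 49.5 in ascending mutants; the fibroblast sum was 36.0 to 94.6 against 12.2 to 54.4 and the macrophage sum 17.1 to 189.7 against 5.47 to 70.8 FPKM. Of the epithelial markers 6 of 7 were above 0 (median 0.28), of the absorptive colonocyte markers 5 of 7 (median 0.64), and of 25 proliferation genes all were (median 0.41). None of these markers passed the adjusted threshold in limma, no marker of the muscle, fibroblast or macrophage lists was at 0 in every library of a group, and their part in the differences of the sterol genes was not tested.

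In the descending colon the difference, adjusted for cage, was above 0 for 24 members, with a median of 0.20 against -0.04 over all genes. Without cage A it was above 0 for 17 members, with a median of 0.06, and with cage and replicate number as a block for 20, with a median of 0.08. That block matches a control to a mutant by number only, which no label links. Mutants A3 and C3 and control B3 have no partner in it and add nothing to its genotype difference. No gene passed in limma (0% of 12219 tested, lowest adjusted p 0.605), 267 genes had an unadjusted p under 0.05, and 0 members did, where 0.802% of all genes were higher in mutants at that level. No gene separated controls from mutants without overlap (0%). In 14 of the 30 members the difference lay within 1 SE of 0.

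Acly, ATP citrate lyase, which makes cytosolic acetyl-CoA from citrate, had the smallest p of the set there. It was 86.9, 171.4 and 194.9 FPKM in descending controls and 144.9, 194.6 and 217.1 FPKM in descending mutants, a difference of 0.30 ± 0.16 (SE; adjusted p = 0.999 in limma). The lowest control, A2, is 1 of the libraries least like their group. Hmgcs1 was 43.5, 60.3 and 77.6 FPKM in controls and 37.9, 89.6 and 134.0 FPKM in mutants. The mutants spanned the whole range of the controls, from C1 below it to A3 well above it, and the difference was 0.46 ± 0.24 (SE; adjusted p = 0.999 in limma). Sqle was 13.5, 18.2 and 26.7 FPKM in controls and 14.2, 27.2 and 37.6 FPKM in mutants, a difference of 0.38 ± 0.21. Fdps had the largest difference of the set, 0.49 ± 0.29. Srebf2 was 37.2, 45.2 and 54.3 FPKM in controls and 45.4, 49.3 and 58.7 FPKM in mutants, and Insig1 was 14.9, 27.7 and 38.6 against 18.2, 33.0 and 49.7 FPKM; in both genes the ranges overlapped. Without mutant A3, the library with the highest level of most members, 21 members remained above 0 and the median was 0.14. Muscle and stromal markers were lower here as well: all 7 smooth muscle markers (median -0.70), all 7 fibroblast markers (median -0.38) and all 5 macrophage markers tested (median -0.48) were below 0 and none passed; the smooth muscle sum was 26.6 to 425.9 FPKM in descending controls and 34.1 to 271.7 in descending mutants. Their part in these values was not tested.

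The mutant difference was larger in the ascending than in the descending colon for 24 members, and 23 were above 0 in both regions. The test of that difference, the interaction of region and genotype over 30 libraries, called 0 of 12353 genes (0%) and 0 members in limma, with 198 genes (1.6%) and 0 members at an unadjusted p under 0.05. The interaction values of the members ran from -0.21 for Acly to 0.41 for Mvd, with a median of 0.11 against -0.01 over all genes. Without cage C the interaction was above 0 for 16 members, with a median of 0.02, and with 1 library left out the median ran from 0.07 (without descending mutant C1) to 0.20 (without descending control A1). The 2 regions were therefore not shown to differ in the mutant effect on any member.

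Both genotypes were present in each cage, and the differences were also taken within cages. In the ascending colon 27 members were higher in the mutants of cage A (median 0.36), 21 in cage B (0.19) and 24 in cage C (0.17). In the descending colon the counts were 26 (0.24), 20 (0.13) and 17 (0.03). Estimated depth in cage A of the ascending colon was 1.46 to 1.55 M reads in mutants and 6.42 and 6.94 M in controls. Genotype and depth cannot be told apart there. In each region 14 members were higher in mutants in all 3 cages, where 10.1% of all genes were in the ascending and 6.26% in the descending colon. Those of the ascending colon included Hmgcs1, Mvk, Mvd, Cyp51, Msmo1, Fdft1 and Insig1. Cyp51 differed by 0.92, 0.36 and 0.78 in cages A, B and C of the ascending colon, and Sqle by 0.85, -0.06 and 0.95. In the ascending colon all mutants of a cage stood above all its controls in 2 of the 3 cages for the 8 members Hmgcs1, Mvk, Mvd, Sqle, Cyp51, Msmo1, Dhcr7 and Tmem97, where 5.78% of all genes did so in 2 or 3 cages. In the descending colon 1 member, Fdps, did, where 1.36% of all genes did. A limma test of whether the mutant effect depends on cage called 0 genes in the ascending colon (0%) and 1 in the descending colon (0.00818%), and 0 members in either; at an unadjusted p under 0.05 it gave 2 and 0 members, where it gave 10.4% and 4.42% of all genes.

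**Figure D3:**
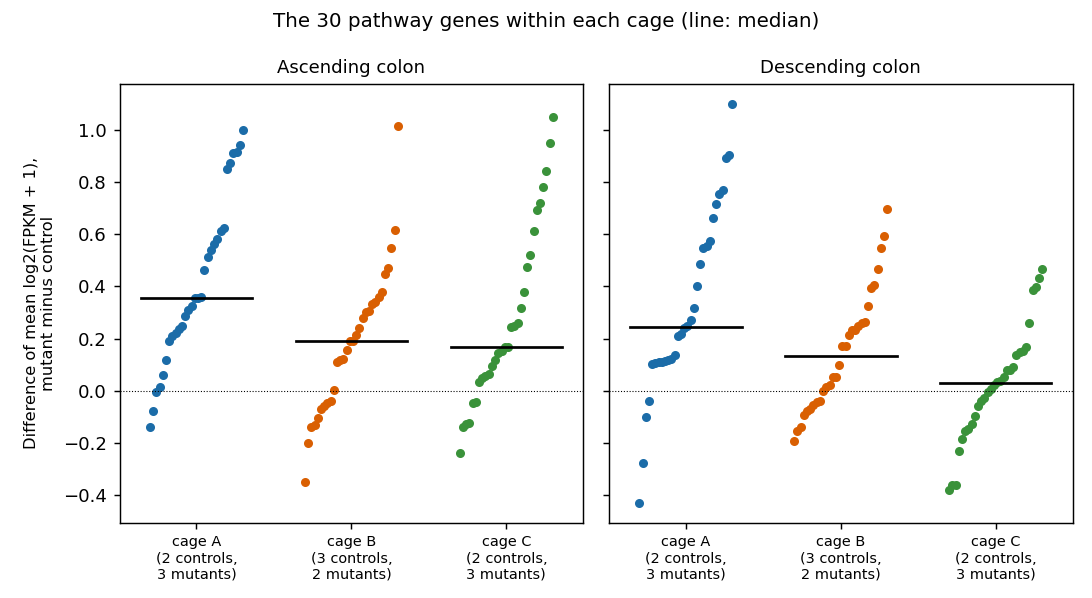
Difference of mean log2(FPKM + 1), mutant minus control, of each of the 30 genes within each cage (points, sorted; line: median), in the ascending (left) and descending colon (right). The median is above 0 in all 6 panels' columns, highest in cage A (0.36 ascending, 0.24 descending) and lowest in cage C of the descending colon (0.03). The ascending mutants of cage A had the lowest estimated depth.

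Differences between cages themselves passed for 161 genes in the ascending (1.32%) and 73 in the descending colon (0.597%) by limma, and for 0 members in either, with 4 and 2 members at an unadjusted p under 0.05, where 15.6% and 13.2% of all genes were. Tmem97 came nearest. In the ascending colon its level was lower in cage B than in cage A by a log2 difference of -0.49 and lower in cage C by -1.14 (adjusted p = 0.106 in limma). Acly was lower in cage C than in cage A of the ascending colon by -0.49 (adjusted p = 0.157 in limma).

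The largest differences in the pathway were between regions, and were those of Acly and Acss2, the genes of acetyl-CoA supply, which were lower in the ascending colon. In controls 14 of the 30 members differed between ascending and descending colon by limma at an adjusted p under 0.05, where 37.9% of all 12515 genes did; 13 were lower in the ascending colon, where 25.1% of all genes were called lower, and 1, Insig2, was higher, where 12.8% of all genes were. In mutants 12 members differed, where 44% of all 12203 genes did: 10 were lower (29.7% of all genes) and 2, Insig2 and Ggps1, were higher (14.3%). The 10 members Acly, Acss2, Mvd, Sqle, Lbr, Msmo1, Sc5d, Dhcr7, Mbtps1 and Mbtps2 were called lower in both genotypes. These are 10 of the 13 called lower in controls and all 10 of those in mutants. The share of all genes called lower in both genotypes was not computed, so this overlap has no background beside it.

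The regional counts depended on scaling. On the deposited FPKM scale the median of all genes was -0.14 in controls and -0.16 in mutants (ascending minus descending), and 66.3% and 67.4% of the genes called were lower in the ascending colon. Median-of-ratios scaling moved those medians to -0.01 and -0.03 and those shares to 46.8% and 49.5%, and left 7 and 6 members called. In controls these were 5 lower and 2 higher, where 32.2% of all genes were called, 15.1% lower and 17.1% higher. In mutants they were 3 lower and 3 higher, where 37.8% of all genes were called, 18.7% lower and 19.1% higher. Under quantile normalization 53.8% and 52.1% of the genes called were lower, with 12 and 9 members called. In controls these were 10 lower and 2 higher, where 33.6% of all genes were called, 18.1% lower and 15.5% higher. In mutants they were 6 lower and 3 higher, where 35.9% of all genes were called, 18.7% lower and 17.2% higher. Under all 3 scalings Acly, Acss2, Lbr and Mbtps1 were lower in the ascending colon of controls, Acly, Acss2 and Dhcr7 in that of mutants, and Insig2 was higher in both genotypes, with Ggps1 higher in mutants. Relative to all genes, the median of the members was -0.39 against -0.14 in controls and -0.29 against -0.16 in mutants.

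Acly, the citrate lyase, was 36.8, 53.5 and 59.2 FPKM in ascending controls and 86.9, 171.4 and 194.9 FPKM in descending controls. In mutants it was 39.5, 54.7 and 70.3 against 144.9, 194.6 and 217.1 FPKM. The regions did not overlap in either genotype. The difference was -1.63 ± 0.18 (SE; adjusted p = 1.27e-05 in limma) in controls and -1.78 ± 0.12 (SE; adjusted p = 4.51e-09) in mutants, and -1.46 and -1.62 under median-of-ratios scaling. Acss2, the synthetase that makes cytosolic acetyl-CoA from acetate, was 8.85, 8.97 and 11.5 FPKM in ascending controls and 16.5, 30.3 and 33.9 FPKM in descending controls. In mutants it was 8.0, 9.33 and 11.4 against 22.3, 26.9 and 40.7 FPKM, and again no library of one region reached the other. Its difference was -1.39 ± 0.12 (SE; adjusted p = 2.46e-06 in limma) in controls and -1.46 ± 0.11 (SE; adjusted p = 2.09e-08) in mutants, and -1.24 and -1.31 under median-of-ratios scaling. The means of ascending and descending controls were 50.5 ± 8.46 and 160.7 ± 37.3 FPKM (SD, n = 7 each) for Acly and 9.62 ± 0.98 and 27.4 ± 6.03 FPKM for Acss2. With Mbtps1 in controls, these were the members whose regions did not overlap: 3 in controls, where 10.7% of all genes did not overlap, and 2 in mutants, where 12.9% did not.

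Lbr, which encodes the lamin B receptor, a sterol reductase of the step after Cyp51, was 12.2, 14.9 and 19.0 FPKM in ascending and 18.2, 24.1 and 26.1 FPKM in descending controls. The ranges met at ascending control B2 and descending control B1, and the difference was -0.56 ± 0.11 (SE; adjusted p = 0.00114 in limma). In mutants the difference was -0.42 ± 0.12, and its adjusted p went from 0.00965 to 0.0578 under median-of-ratios scaling. Msmo1, Mvd, Hmgcs1 and Sqle differed by -0.79 ± 0.23, -0.75 ± 0.23, -0.69 ± 0.19 and -0.65 ± 0.19 in controls, and by -0.57 ± 0.20, -0.35 ± 0.14, -0.49 ± 0.21 and -0.46 ± 0.16 in mutants, of which Hmgcs1 in mutants did not pass (adjusted p = 0.0656 in limma). In controls Acat2 (-0.53 ± 0.15), Dhcr7 (-0.48 ± 0.13), Mbtps2 (-0.43 ± 0.16), Sc5d (-0.40 ± 0.11), Mbtps1 (-0.37 ± 0.08) and Nsdhl (-0.34 ± 0.12) also passed on the deposited scale. Ebp, at -0.56 ± 0.24, Mvk, at -0.42 ± 0.21, Fdft1, at -0.42 ± 0.20, and Cyp51, at -0.38 ± 0.18, did not.

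Insig2, the other retention protein, went the opposite way. It was 10.8, 15.5 and 21.2 FPKM in ascending controls and 5.25, 9.84 and 12.8 FPKM in descending controls, with only ascending control B1 inside the descending range. In mutants it was 11.5, 16.2 and 18.2 against 4.61, 8.90 and 12.7 FPKM. The difference was 0.70 ± 0.17 (SE; adjusted p = 0.00547 in limma) in controls and 0.78 ± 0.15 (SE; adjusted p = 0.000646) in mutants. Its paralogue Insig1 lay within 1 SE of 0 in both genotypes, as did Scap and Lss. Srebf2 differed by -0.14 ± 0.09 and -0.10 ± 0.09 on the deposited scale and by 0.02 and 0.05 under median-of-ratios scaling.

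**Figure D4:**
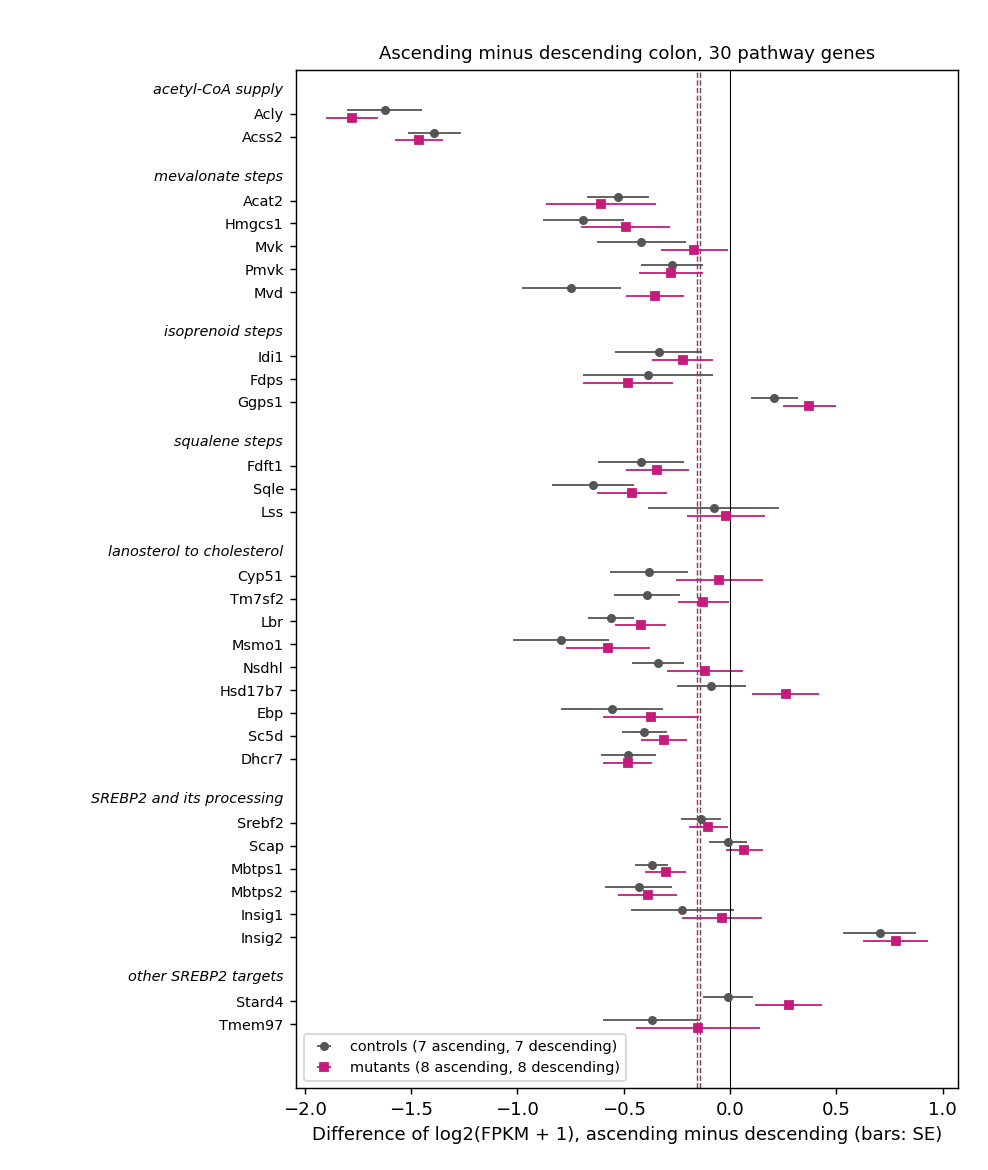
Differences of log2(FPKM + 1), ascending minus descending colon, of the 30 genes by step, with bars of 1 SE, in controls (circles) and mutants (squares); dashed lines are the medians of all genes. Acly and Acss2 lie lowest, between -1.78 and -1.39, and Insig2 highest, at 0.70 and 0.78.

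**Figure D5:**
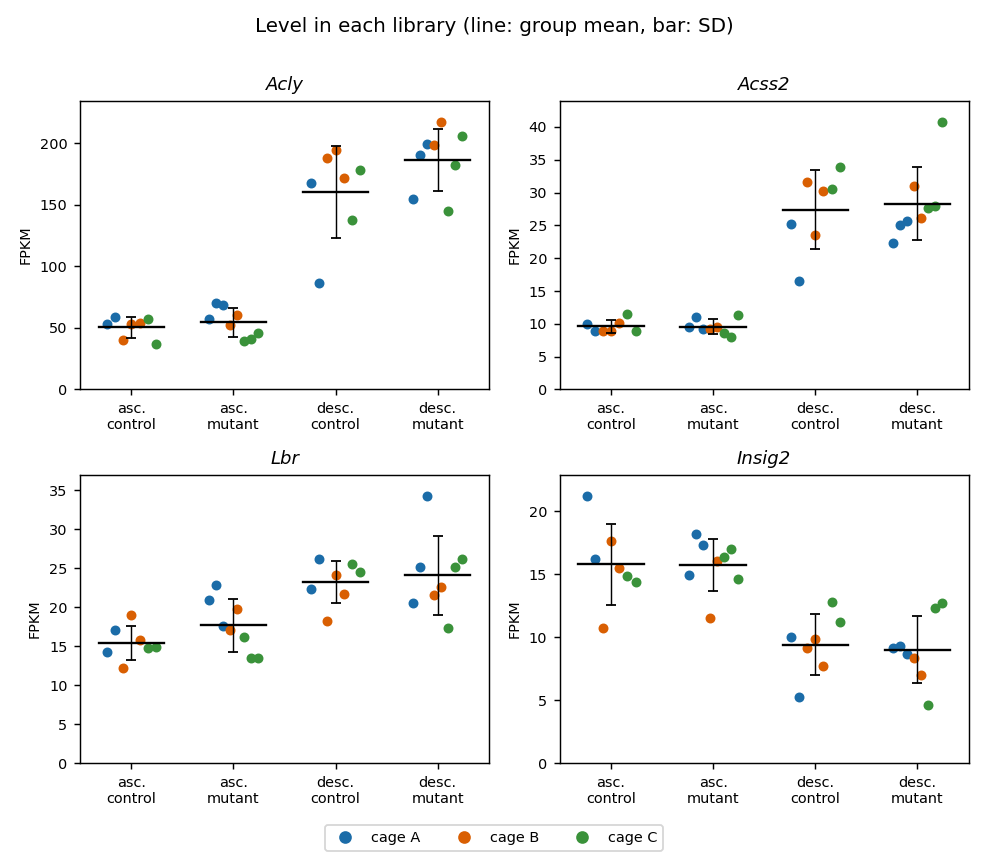
FPKM of 4 genes in each of the 30 libraries (points, coloured by cage), with the group mean (line) and SD (bar). For Acly and Acss2 every ascending library is below every descending one of its genotype, and Insig2 has the opposite order with some overlap in both genotypes.

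Other cell types and states differed between the regions too. All 25 proliferation genes were lower in the ascending colon of both genotypes, and 21 in controls and 15 in mutants passed in limma. Absorptive colonocyte markers had a median difference of 2.76 in controls, 4 of 7 called higher and 2 lower, and 3.02 in mutants. Smooth muscle markers were lower in the ascending colon for all 7, of which 1 passed in controls and 7 in mutants, and 3 of the 3 T cell markers tested, of 4, were higher in both. Fibroblast and macrophage lists had 0 members called in controls and 4 and 1 called lower in mutants. Their part in the regional differences of the sterol genes was not tested.

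Neighbouring parts of lipid metabolism gave the context. None of their genes passed in either mutant comparison, and the lists were chosen with earlier results of these data known. Of 8 genes of sterol efflux and its LXR control, 7 were below 0 in ascending mutants (median -0.28) and 5 in descending mutants (median -0.09). Abca1, the exporter that loads cholesterol onto lipoproteins, had the lowest adjusted p of any gene in the ascending comparison, with a difference of -0.77 ± 0.13 (SE; adjusted p = 0.212 in limma), and was -0.49 ± 0.14 (SE; adjusted p = 0.999 in limma) in the descending colon. Abcg5, a sterol exporter, differed by -0.87 ± 0.26 in the ascending colon. Abca1 is also made by macrophages, whose markers were lower in the same mutants, as given above. The part of macrophages in the difference of Abca1 was not tested.

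Of 12 genes of fatty acid synthesis, the branch driven by SREBP1, 10 were above 0 in ascending mutants (median 0.18) and 9 in descending mutants (median 0.16). Scd2, a desaturase, differed by 0.80 ± 0.20 and Fasn, fatty acid synthase, by 0.35 ± 0.10 in the ascending colon, and Fasn by 0.33 ± 0.15 in the descending colon. Soat1, which esterifies cholesterol, differed by -0.39 ± 0.14 in the ascending colon. The 12 genes of isoprenoid branches and prenylation were split evenly, 6 above 0 in each region (medians -0.02 and -0.02). Of 6 electron donors of the sterol enzymes 5 were above 0 in the ascending and 2 in the descending colon, with Cyb5b, a cytochrome that serves sterol oxidation, at 0.24 ± 0.08 and 0.21 ± 0.14. Of 9 genes of sterol-regulated degradation in the endoplasmic reticulum 5 and 2 were above 0, and of 4 of esterification and lysosomal export 2 and 2.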

How the data were processed

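Per the labels' protocols, ribosomal RNA was removed from total RNA, libraries were made with the Kapa Hyper Prep kit and RiboErase, and single reads were sequenced on an Illumina instrument. The tools named in the submitters' processing notes are bcl2fastq 2.17, STAR and DESeq2, with the genome build GRCm38 (mm10); for the gene counter and annotation release, none is given in the sources used here. The authors deposited FPKM values, without counts, in 1 table, of which 0 sample columns were left unused. FPKM of a library sums to a total set by its own most abundant genes, so that scaling can shift all genes together. Groups follow the sample labels.

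All tests used log2(FPKM + 1). A gene entered a fit when its FPKM averaged 0.5 or more across the libraries in that fit, and all 30 members passed in every comparison. limma 3.58.1 in R 4.3.3 (lmFit, eBayes with a trend) was fitted to all genes, with cage as a covariate. Tests were two-sided, with Benjamini-Hochberg adjustment over all genes and a threshold of 0.05. The scripts were tested on simulated data. Intervals of depth could not be had without counts; precision comes from the spread between libraries. Alternatives covered pseudocount, filter, scaling, weights, covariates and leaving out libraries or cages. Per-library values are given for the 3 members with the smallest p in each mutant and regional comparison and for Srebf2, Insig1, Hmgcs1 and Sqle; other lists are given by counts and at most 2 genes each. The members and lists were chosen with earlier results of these data known. Gene positions are from GENCODE M21, in which 14472 of 14475 identifiers were found, and promoters from RefSeq, both on GRCm38.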

Additional observations from a re-analysis of the deposited data

Results flagged for a closer look

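Among 120 groups of libraries (30 genes in 4 groups), 9 held a library whose gap to the nearest of the others was large for the range of the group; chance gives about 1 in 20 groups. In descending mutant A1, Fdps was 1.9 FPKM against 5.85 to 7.93 in the other 7 libraries, and Fdft1 was 9.46 against 15.95 to 22.53. In descending mutant C1, a library little like its group, Ggps1 was 2.96 FPKM against 4.38 to 5.81, Dhcr7 was 18.46 against 26.79 to 34.68, and Ebp was 8.32 against 21.84 to 46.59. Ebp was likewise low in descending control A2, at 8.94 FPKM against 22.79 to 38.41. Lss in ascending control C1 was 11.88 FPKM against 3.88 to 5.35. Tm7sf2 in ascending mutant C1 was 4.71 FPKM against 5.73 to 6.71, and Scap in descending control B3 was 16.56 against 13.37 to 14.12.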

How the results depend on the processing

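For the pathway genes that differed by at least 1 SE, 1149 of 1271 values under other settings and 1465 of 1544 with 1 library left out kept their direction and their side of the threshold. Of the others, 7 values changed sign, none of them called: Scap in the ascending mutant comparison without cage B (-0.0058), Srebf2 between regions under median-of-ratios scaling (0.022 in controls, 0.054 in mutants), Tmem97 between regions in controls without cage C (0.045), and Tm7sf2 between regions in mutants under median-of-ratios scaling (0.012), quantile normalization (0.038) and without cage A (0.012). The cause was not tested.

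In the ascending mutant comparison 746 genes and 11 pathway genes passed with array quality weights, 652 and 7 without cage B, 839 and 8 without the 2 libraries least like their group, and 3 genes in 1 fit of all 30 libraries; leaving out 1 library gave 0 to 170 genes and 0 to 2 pathway genes, the highest without ascending mutant B1. In the descending comparison 1 gene passed with array quality weights. Between regions in controls, 7 pathway genes passed under median-of-ratios scaling, 8 without cage B (2069 genes) and 6 without cage C (2567 genes); those above 0 were 7 under median-of-ratios scaling, 6 under quantile normalization, 5 with array quality weights, 4 without cage B, 6 without the least alike libraries, and 2 to 4 with 1 library left out. In mutants 6 passed under median-of-ratios scaling, where 37.8% of all genes did, with 11 above 0. Without cage B 5 passed, for which the number of all genes is not given here, and 3528 genes passed without cage C. On the deposited scale 34.7% of all genes were above 0 in controls and 34.2% in mutants. Those shares under the other settings are not given here, so the counts above 0 have no background beside them. In mutants, leaving out 1 library gave 7 to 16 pathway genes passing, where 4740 to 5963 of all genes passed, and 5 to 8 pathway genes above 0. The number passing was lowest without descending mutant C2 or ascending mutant B2 and highest without descending mutant A1. Cage differences passed for 44 to 581 genes and 0 to 1 pathway genes in the ascending colon and 33 to 176 genes in the descending colon with 1 library left out. The dependence of the mutant effect on cage was called for 1 gene with a pseudocount of 0.1, and for 0 to 381 genes (ascending) and 1 to 132 genes (descending) with 1 library left out. The cause of these shifts was not tested.

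Deviations of same-numbered libraries from their group and cage had correlations of -0.258 to 0.358 between regions (4 of 15 over 0.1). Between genotypes they were -0.176 to 0.383 (6 of 12). Where a cage held 2 libraries of a genotype, their deviations mirror each other and both regional pairs take 1 value, such as -0.258 for mutants B1 and B2. Differently numbered pairs were not compared, so these values cannot say whether same-numbered libraries share an animal. With cage and replicate number as a replicate block, 0 genes passed in either mutant comparison, and the medians of the pathway genes were 0.27 and 0.08. Mutants A3 and C3 and control B3 of each region have no partner of the other genotype. They add nothing to those medians. Between regions 12 and 13 pathway genes passed with the replicate block. The share of all genes passing with it is not given here, so these counts have no background beside them. Over all the alternative settings together, 2069 to 6232 of all genes passed in controls and 3528 to 6540 in mutants. FPKM without counts leaves the precision of low genes, such as Idi1, unknown.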

Other observations

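The ratio of Lss to Ebp, which encode enzymes of the same pathway, set 4 libraries apart, a pattern chosen after the values were seen. In descending control A2, descending mutant C1, ascending control C1 and ascending mutant B1 the ratio of their FPKM was 0.832 to 1.98, and in the other 26 libraries it was 0.068 to 0.502. In descending control A2 Lss was 17.7 and Ebp 8.94 FPKM, the highest Lss of all libraries and an Ebp above only that of descending mutant C1; in descending mutant C1 they were 10.9 and 8.32. Both genotypes, both regions and all 3 cages are represented, and 3 of the 4 are among the libraries least like their groups. Over 12335 genes, a library's deviation from the mean of its group was correlated with GC content and with length. With the GC content of the longest protein-coding transcript the correlation was 0.143 to 0.204 in these 4 and -0.323 to 0.371 in the others. With log2 exon length it was 0.141 to 0.299 and -0.312 to 0.223. The ranges overlap, and the source of the pattern was not tested.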
